A study of Mus musculus with 3 samples.

Results

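The 10 genes described here, Lgr5, Ascl2, Olfm4, Smoc2, Axin2, Sox9, Myc, Rnf43, Znrf3 and Ephb2, mark intestinal stem cells (ISCs) or respond to WNT signalling. They were chosen by name, and all 10 were found among the 51912 features counted in 3 single-cell RNA-seq libraries of mouse intestinal epithelium. In 2 libraries the mice were VillinCreERT2, Arid3a fl/fl (Arid3a cKO), in which the Villin promoter drives a tamoxifen-inducible Cre in the intestinal epithelium and the floxed Arid3a gene is removed there. In the remaining library the mouse was VillinCreERT2 with no floxed allele named (WT), so both genotypes carried the Cre and both received tamoxifen, at an age of 8 to 10 weeks, with harvest 1 month after the first injection. Crypts were dissociated, living cells were sorted as Epcam-positive, CD45-negative and CD31-negative, and 3′ libraries were made on the 10x Genomics platform, in which each captured transcript carries a unique molecular identifier (UMI). The series names biological replicates, and a further WT replicate was not analysed here. With 1 WT library, the spread of WT between animals could not be measured, and every comparison of genotypes below rests on that library.

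The crypt is renewed by ISCs at its base, which divide next to Paneth cells and hand over their progeny to transit-amplifying (TA) cells before these differentiate and move onto the villus. WNT ligands bind Frizzled and Lrp receptors and stabilise beta-catenin, which acts with TCF/LEF factors on target genes. R-spondins bind Lgr receptors, Lgr5 among them, and thereby hold back the ubiquitin ligases Rnf43 and Znrf3, which would otherwise remove Frizzled from the membrane. Axin2, Rnf43 and Znrf3 are themselves WNT targets and close negative feedback loops. Ascl2 is a transcription factor of the ISC programme, Olfm4 encodes a secreted glycoprotein and Smoc2 a secreted matrix protein, both used as ISC markers. Sox9 and Myc are transcription factors of the crypt, and the receptor Ephb2 sorts cells by position along it.

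Of 25554 barcodes, 5594 had at least 1000 genes and at most 15% mitochondrial UMIs and were kept. Kept cells per library ranged from 1550 to 2134 and their median depth from 29895 to 35764 UMIs. Between 66.4% and 79.2% of the barcodes of a library lay above the mitochondrial limit. Pairs of libraries shared 11 to 18 barcodes, of which 0 to 2 were kept in both. Clustering was done without the 10 genes. The ISC-like cluster (1067 cells) carried 12 of 14 ISC markers at 1.5-fold or more over other cells, while its 10 leading genes also included the DNA replication genes Mcm2, Mcm3 and Mcm4. The TA-like cluster (702 cells) carried all 18 TA markers, and goblet-, enteroendocrine-, tuft- and Paneth-like cells were named likewise. Clusters 1, 3 and 5 carried enterocyte markers but are given by number, because the 10 leading genes of cluster 3 held 1 ISC marker and 0 enterocyte markers. Cluster 2 had no name and was led by 1500035N22Rik, Ccl20, Edn2 and Bmp3. Cluster 8 (152 cells) was led by Gm42418, Mir6236 and Lars2, had 11.8% mitochondrial UMIs at the median and carried 5 of 19 enterocyte markers at 1.5-fold or more. Arid3a gave 9 and 5 UMIs in the ISC- and TA-like cells of the Arid3a cKO libraries and 30 in WT (log2 fold change -2.08, SE 0.57, adjusted p = 0.0199, edgeR quasi-likelihood test), which checks the labels.

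Promoters from RefSeq were at hand for 5 of the 10 genes. The 3 shown here are the 250 bases before the transcript start of a strong ISC marker, an ISC transcription factor and a feedback inhibitor, each read 5′ to 3′ on the strand of its gene in GRCm38.p6. The Olfm4 promoter lies at chr14:80000052-80000301 on the plus strand, Ascl2 at chr7:142969265-142969514 on the minus strand and Axin2 at chr11:108920099-108920348 on the plus strand. Capitals mark the letters TATAA.
Olfm4: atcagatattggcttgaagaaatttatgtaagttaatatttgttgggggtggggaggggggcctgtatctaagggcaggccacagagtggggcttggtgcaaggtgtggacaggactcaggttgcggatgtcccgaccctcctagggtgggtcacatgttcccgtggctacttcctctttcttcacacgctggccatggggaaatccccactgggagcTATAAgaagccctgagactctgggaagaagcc
Ascl2: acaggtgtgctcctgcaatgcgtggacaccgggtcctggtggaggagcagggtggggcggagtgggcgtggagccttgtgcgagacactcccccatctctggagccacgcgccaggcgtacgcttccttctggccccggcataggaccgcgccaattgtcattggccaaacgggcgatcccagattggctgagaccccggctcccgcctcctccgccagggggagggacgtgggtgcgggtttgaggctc
Axin2: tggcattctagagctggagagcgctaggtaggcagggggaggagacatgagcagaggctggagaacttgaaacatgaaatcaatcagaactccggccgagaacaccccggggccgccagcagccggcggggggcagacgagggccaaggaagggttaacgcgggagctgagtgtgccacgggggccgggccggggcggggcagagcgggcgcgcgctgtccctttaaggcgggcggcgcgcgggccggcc
TATAA began at position -32 of Olfm4, counted from the transcript start, and in no other of the 6 promoter entries of these genes, while 16.0% of 32851 promoters held it on the strand of the gene. The letters CTTTGA, the core of the TCF/LEF motif, were searched on both strands and were in none of the 6 entries, against 13.8% of all promoters. That result concerns these windows alone. The Olfm4 promoter was 54% G and C, Ascl2 67.6% and Axin2 69.2%, with a median of 52.4% over all promoters.

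All 10 genes are protein-coding, and in the GENCODE M21 annotation of GRCm38, matched by gene identifier, they lie on 7 chromosomes. Lgr5 is at chr10:115450311-115587780, Ascl2 at chr7:142966829-142969264, Olfm4 at chr14:79984081-80023139, Smoc2 at chr17:14279506-14404790 and Ephb2 at chr4:136647539-136835988. Chromosome 11 carries Axin2 (chr11:108920349-108950783), Sox9 (chr11:112782224-112787760), Rnf43 (chr11:87662722-87735539) and Znrf3 (chr11:5276324-5444847), and Myc is at chr15:61985391-61990374. On the same strand, Olfm4 overlaps Gm6999 and Rnf43 overlaps 1110028F11Rik. Both neighbours were counted in the same files, so reads at those positions may have been lost to either gene.

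The first question was where along the crypt and villus each gene was expressed. Levels are CPM, the UMIs of a gene per 1000000 UMIs of all genes, both summed over the cells of a class in 1 library. Except for Rnf43, at least 71.4% of the UMIs of each gene came from the ISC- and TA-like cells. The share was 93.4% for Olfm4, 91.6% for Ascl2, 87.4% for Lgr5 and 86.7% for Myc, and 58.9% for Rnf43. The classes were built from the same cells, so levels across classes are a description, and levels are compared within a gene, not between genes.

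Among the stem cell markers, Lgr5, the R-spondin receptor, had 51.3 and 53.9 CPM in the ISC-like cells of Arid3a cKO 1 and Arid3a cKO 2, and 41.3 CPM in WT. In TA-like cells it had 34.6, 18.8 and 35.4 CPM in the same order. Every library was lower in TA- than in ISC-like cells, and the ranges of the classes did not overlap. In clusters 1, 3 and 5 Lgr5 stayed at or below 0.499 CPM.

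Olfm4, the secreted glycoprotein, had 466 and 480 CPM in ISC-like cells of the Arid3a cKO libraries and 447 CPM in WT, and 314, 222 and 341 CPM in TA-like cells. The classes were again apart. Of the other clusters, cluster 2 held 2.14 to 7.75 CPM and cluster 1 0.689 to 1.23 CPM.

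Ascl2 was at 59.7, 58.7 and 46.9 CPM in ISC-like cells, and at 51.7, 33.5 and 49.1 CPM in TA-like cells. For this factor the ranges overlapped, and the TA-like level of single libraries was 57.1% to 105% of the ISC-like level. Smoc2, the matrix protein, gave 108, 117 and 100.3 CPM in ISC-like cells against 101, 93.0 and 92.6 CPM in TA-like cells. It declined the least of the 4 markers between these classes (median 92.3% of the ISC-like level, ranges overlapping), and it was still at 12.8 to 15.6 CPM in cluster 2.

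The feedback inhibitors did not follow 1 pattern. Axin2, a scaffold of the complex that degrades beta-catenin, had 95.8, 89.3 and 93.3 CPM in ISC-like cells and 96.1, 65.5 and 94.8 CPM in TA-like cells. These ranges overlapped, and only the second Arid3a cKO library was lower in TA-like cells than in ISC-like cells. Znrf3 was at 14.9, 13.5 and 12.6 CPM in ISC-like cells and at 11.7, 10.2 and 12.1 CPM in TA-like cells, a small step without overlap of the ranges. Rnf43 had 45.6, 41.6 and 42.7 CPM in ISC-like cells and 37.0, 25.6 and 34.9 CPM in TA-like cells.

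Rnf43 was also counted in the clusters with enterocyte markers. In cluster 5, led by Akp3 and S100g, it held 31.1, 26.9 and 20.9 CPM, a median of 64.6% of the ISC-like level of the same library. In that cluster the median share of the ISC-like level was 0.743% for Lgr5 and 8.05% for Ephb2. Rnf43 was also at 17.1, 15.9 and 12.9 CPM in cluster 1 and at 13.2, 13.2 and 8.59 CPM in cluster 3. A UMI of Rnf43 was seen in 40.7% to 58.7% of the cells of cluster 5.

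Of the transcription factors, Sox9 had 145, 130 and 116 CPM in ISC-like cells and 117, 93.3 and 93.3 CPM in TA-like cells, and Myc had 51.7, 53.6 and 52.5 CPM against 42.3, 30.2 and 35.5 CPM. Myc was separated between these classes and Sox9 was not. Sox9 peaked in tuft-like cells, chemosensory cells that also express it, at 474, 295 and 523 CPM, above every other class in every library. Of the 98 tuft-like cells, 20 to 39 came from each library, and 97.4% to 100% of them had a Sox9 UMI.

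The sorting receptor Ephb2 ran against the markers above. It had 36.4, 31.0 and 38.3 CPM in ISC-like cells and 45.7, 37.2 and 48.1 CPM in TA-like cells. Each library was higher in TA-like cells, at a median of 125% of its ISC-like level, although the ranges over libraries overlapped. Tuft-like cells were the highest class, at 78.1, 56.1 and 50.5 CPM, from 40, 23 and 23 UMIs.

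**Figure D1:**
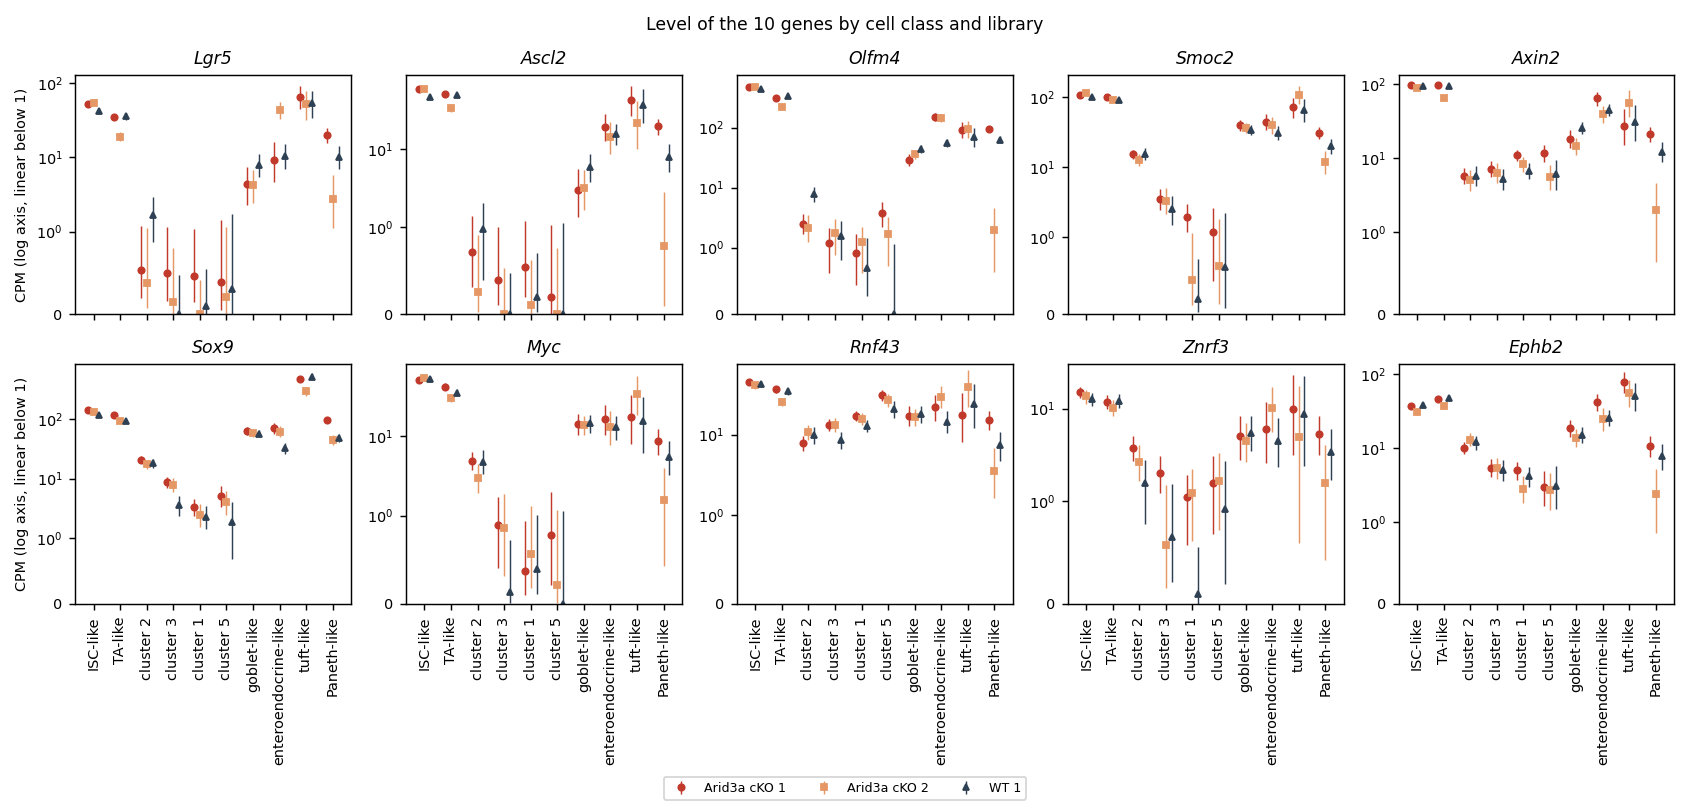
Level of each of the 10 genes in CPM (vertical axis, log scale, linear below 1) in each cell class or cluster except cluster 8 (horizontal axis), with 1 point for each library and bars for the exact Poisson 95% interval. Lgr5 is at or below 0.499 CPM in clusters 1, 3 and 5, whereas Rnf43 is at 8.59 CPM or more there and Sox9 is highest in tuft-like cells.

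Lgr5 and the other stem cell markers were also read in tuft-like cells. Lgr5 had 64.4, 51.2 and 52.7 CPM there, which overlapped the ISC-like range. These levels rested on few cells. In Arid3a cKO 1, 20 of 33 Lgr5 UMIs came from 1 cell. After removal of the top 5% of cells by doublet score, Lgr5 was at 39.8, 82.6 and 45.0 CPM, and Olfm4 went from 91.7, 95.1 and 70.3 CPM to 9.19, 124 and 8.99 CPM. Sox9 held at 505, 368 and 569 CPM without those cells. Ephb2 was then at 88.8, 82.6 and 36.0 CPM, and in WT this lay below the TA-like level of 48.1 CPM given above.

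Shares of single cells with a UMI were read next. In ISC-like cells an Lgr5 UMI was found in 37.7% (95% interval 33.1% to 42.4%) of 438 cells of Arid3a cKO 1, 38.0% (32.1% to 44.1%) of 266 cells of Arid3a cKO 2 and 38.3% (33.3% to 43.5%) of 363 WT cells. These exact Clopper-Pearson intervals, like the Poisson intervals of the CPM, cover counting error only. The 3 intervals overlapped. In cluster 1, at a median of 30062 to 33826 UMIs against 27217 to 33069.5 in ISC-like cells, the shares were 1.37%, 0% (upper bound 1.34%) and 0.294%. After each ISC-like cell was thinned to 22000 UMIs, which left out 93, 27 and 86 shallower cells, the Lgr5 shares were 27.8%, 31.0% and 29.96%. The same deeper cells before thinning had shares of 31.0%, 36.4% and 35.4%. The share with an Olfm4 UMI was 79.0%, 84.6% and 83.5% unthinned and 74.8%, 79.1% and 78.3% thinned. An ISC-like cell had UMIs of a median of 7 of the 10 genes in every library, and a cell of cluster 1 of 0 or 1.

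The ISC-like cluster was not uniform. When its cells were divided by whether an Lgr5 UMI was present, each of the other 9 genes was higher in the cells with the UMI in 3 of 3 libraries. Olfm4 had 948, 907 and 790 CPM in cells with an Lgr5 UMI and 214, 227 and 248 CPM in cells without one, a median ratio of 4.01. The cells with an Lgr5 UMI were the shallower ones in each library, with 23618 to 29961 UMIs at the median against 28329.5 to 34910. Ratios followed of 2.87 for Axin2, 2.79 for Sox9, 2.67 for Ascl2, 2.41 for Rnf43, 2.06 for Smoc2, 1.88 for Znrf3 and 1.41 for Myc. Ephb2 had the lowest ratio, 1.08, with 42.7, 32.5 and 38.8 CPM against 33.2, 30.1 and 37.9 CPM, and its Poisson intervals overlapped between the divided cells in all 3 libraries. These ratios compare cells of 1 cluster and carry no test.

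**Figure D2:**
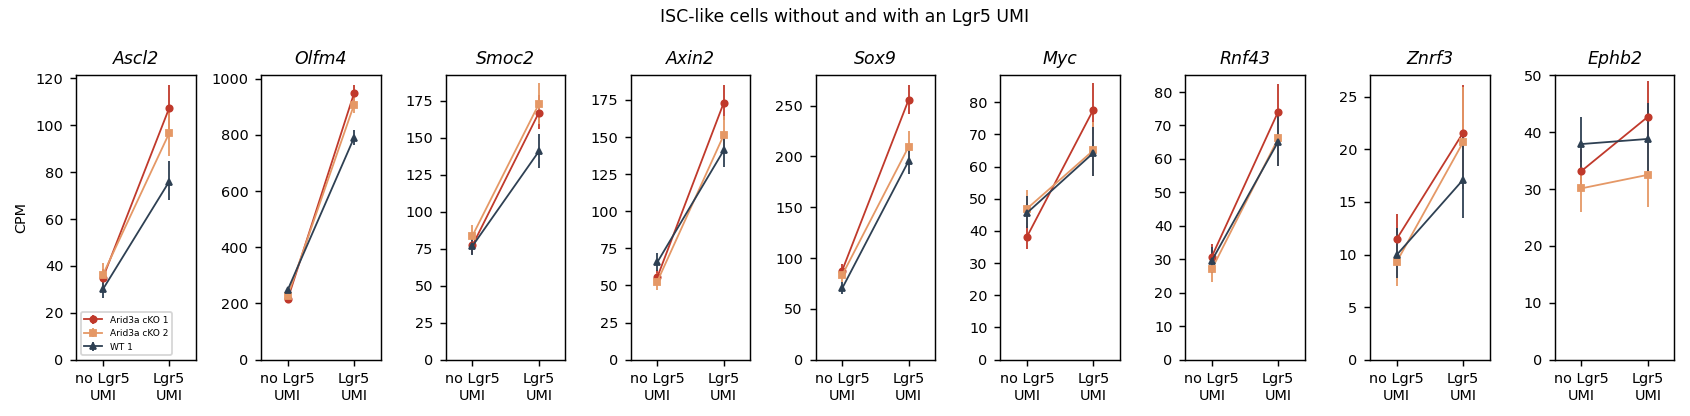
Level in CPM (vertical axis) of the other 9 genes in ISC-like cells without and with an Lgr5 UMI (horizontal axis), with 1 line for each library and bars for the exact Poisson 95% interval. Every line slopes upward, most for Olfm4 (median ratio 4.01) and least for Ephb2 (1.08).

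A finer clustering at resolution 0.8 set apart 385 cells with higher levels of most of these genes. In them Lgr5 was at 141, 144 and 112 CPM, Olfm4 at 1068, 1048 and 934 CPM, Ascl2 at 114, 104 and 85.2 CPM and Sox9 at 276, 232 and 206 CPM. These 4 were among 7 of the 10 genes with both Arid3a cKO libraries above WT. The other 3 were Ephb2, at 44.2, 34.2 and 38.2 CPM, Myc, at 85.5, 63.6 and 75.7 CPM, and Rnf43, at 80.5, 69.1 and 69.4 CPM. No test was run in this cluster, and the share of all genes with both Arid3a cKO libraries above WT was not computed there. The count of 7 therefore cannot be read as particular to the 10 genes. By the naming rule it was the only ISC-like cluster at resolution 0.8, and clusters of 517, 480 and 390 cells were named TA-like. Most of the 1067 ISC-like cells used elsewhere thus did not carry that name at the finer resolution.

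The ISC- and TA-like cells and the cells of clusters 1, 3, 5 and 8 were next placed along 1 order by diffusion pseudotime, without cluster 2, and divided into 5 bins with equal numbers of cells. In bin 1 Lgr5 was at 55.0, 63.2 and 48.1 CPM, in bin 2 at 33.6, 19.0 and 29.1 CPM and in bin 3 at 11.7, 5.63 and 9.85 CPM. In bins 4 and 5 0 to 7 Lgr5 UMIs were counted per library. The last bin held a median of 0.3005% of the first for Lgr5, 0.333% for Olfm4, 2.18% for Sox9, 8.32% for Axin2 and 9.23% for Ephb2. Lgr5 and Olfm4 were thus near 0 where Axin2 and Ephb2 were still counted. Ephb2 was at 102% to 120% of its first bin in bin 2 before it declined. With cluster 2 among the cells ordered, bin 3 held at most 0.345% ISC- and TA-like cells, Lgr5 was there at 0.443, 0.454 and 0.324 CPM, and Ephb2 was at 99.4% to 108% of its first bin in bin 2. Rnf43 was at 15.9, 16.9 and 12.3 CPM in bin 3 and at 21.7, 20.6 and 16.0 CPM in the last bin, a median of 43.0% of the first. The decline of Rnf43 ended in bin 3, and every library was higher in the last bin than there. Axin2 also rose late, from 8.87, 7.73 and 4.92 CPM in bin 4 to 12.8, 8.20 and 8.38 CPM in the last bin. With cluster 2 among the cells ordered, Axin2 was at 4.50, 3.29 and 4.10 CPM in bin 3 and at 11.2, 7.80 and 7.21 CPM in the last bin.

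**Figure D3:**
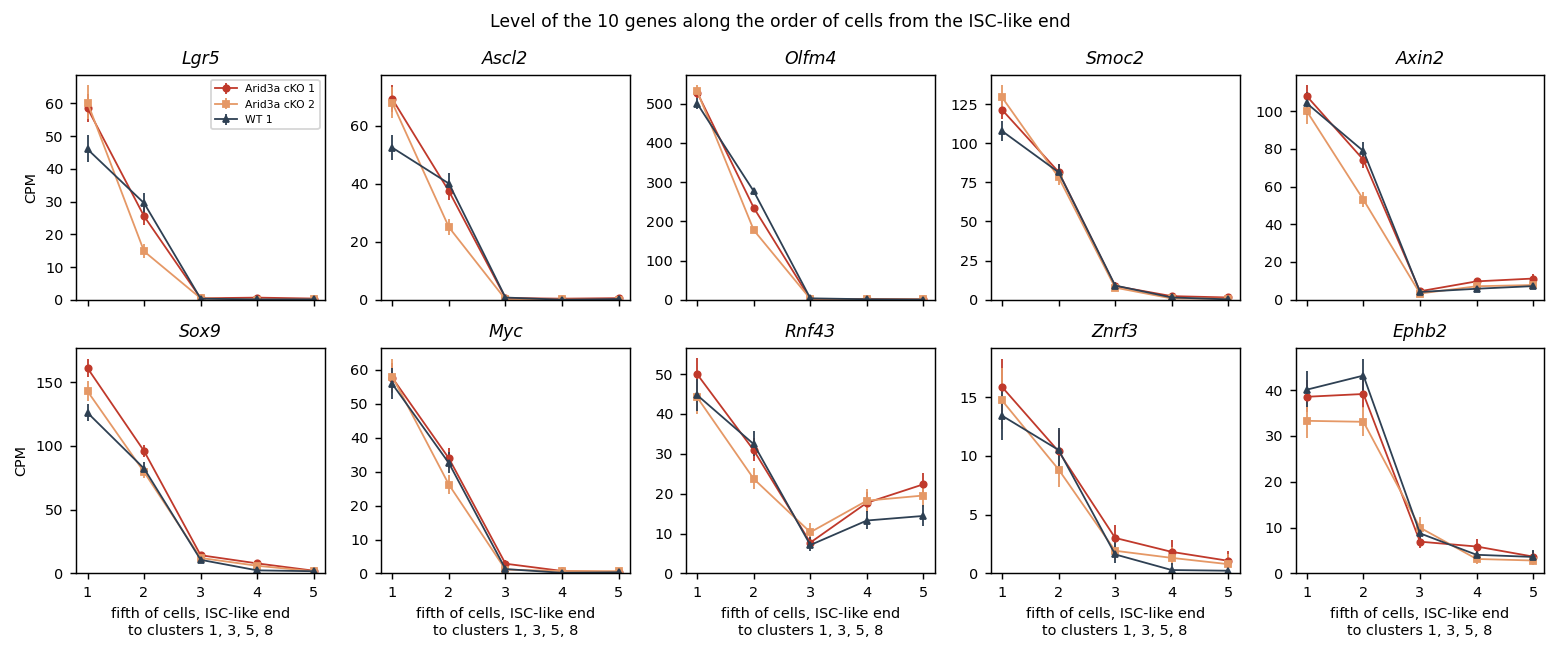
Level in CPM (vertical axis) of each gene in 5 bins of cells ordered from ISC-like cells to clusters 1, 3, 5 and 8 (horizontal axis), with 1 line for each library and bars for the exact Poisson 95% interval, drawn with cluster 2 among the cells ordered. Lgr5 and Olfm4 reach 0.614% or less of their first bin in the last one, and Rnf43 keeps 32.3% to 44.8%.

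The pattern of each gene was compared with 5296 genes over 33 sums of UMIs (11 classes or clusters in 3 libraries) by Pearson correlation. These sums share libraries and depth, so the values describe likeness and carry no test. The nearest gene was Cnn3 for both Lgr5 (r = 0.95) and Ascl2 (r = 0.95), Slc12a2, an ion cotransporter, for Olfm4 (r = 0.96), Myb, a transcription factor, for Smoc2 (r = 0.98) and Nap1l1 for Myc (r = 0.97). Cd24a was nearest to Sox9 (r = 0.93), Soat1 to Axin2 (r = 0.93), Dut to Znrf3 (r = 0.92) and Kcnq1, a potassium channel, to Ephb2 (r = 0.96). No gene came as near to Rnf43, for which Zbtb38 led with r = 0.80. Among the 45 pairs of the 10 genes the median r was 0.88, pairs with Rnf43 ranged from 0.31 to 0.58, and without Rnf43 the lowest was 0.72.

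The second comparison asked whether loss of Arid3a changed these genes in the crypt. UMIs were summed per library over ISC- and TA-like cells and tested with edgeR's quasi-likelihood test over all genes with at least 30 UMIs, with Benjamini-Hochberg adjustment. No member was called at an adjusted p under 0.05 (0 of 10), with 1.68% of 13765 genes called. At an unadjusted p under 0.05 there were 0 of 10, against 1102 of the 13765 genes, and DESeq2 called 0 of 10. The log2 fold changes of Arid3a cKO over WT had a median of 0.03 over the 10 genes and -0.00 over all genes tested.

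The largest of these differences was that of Sox9, at 133 and 111 CPM in the Arid3a cKO libraries and 105 CPM in WT (log2 fold change 0.22, SE 0.14, adjusted p = 0.787). Both Arid3a cKO libraries lay above WT. Ephb2 was at 40.5 and 34.3 CPM against 43.0 CPM (-0.20, SE 0.15, adjusted p = 0.866), with both below WT. Lgr5 was at 43.9 and 35.5 CPM against 38.4 CPM, and Olfm4 at 399 and 344 CPM against 396 CPM, so WT lay between the Arid3a cKO libraries for both. With 1 residual degree of freedom, the spread of single genes was drawn toward that of all genes, and for these sums the estimate rested wholly on the common trend. On simulated counts the same test found 72% of 2-fold and 94% of 4-fold changes in ISC- and TA-like cells, with 12 false calls. DESeq2 found 50% and 80%, with 0 false calls. Every simulated gene varied exactly as the common trend, so these shares do not cover genes that vary more between animals. Smaller changes were not simulated.

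Over all kept cells 0 of 10 genes were called, with 0.707% of 15986 genes called, and DESeq2 called 0 of 10. An unadjusted p under 0.05 was again reached in edgeR by 0 of 10, and by 1816 of the 15986 genes. The fold changes of the 10 genes ranged from -0.15 for Ephb2 to 0.19 for Sox9 on the log2 scale. These sums also carry the shares of the cell types.

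In ISC-like cells alone the test called 0 of 10 (0.916% of 12549 genes called). An unadjusted p under 0.05 was reached in edgeR by 1062 of the 12549 genes. Lgr5 (log2 fold change 0.36, SE 0.14, adjusted p = 0.368) and Ascl2 (0.34, SE 0.13, adjusted p = 0.386) were the 2 below an unadjusted p of 0.05 in edgeR, and DESeq2 had 0. Both Arid3a cKO libraries were above WT for each, as given above. The median over the 10 genes was 0.13, with 8 positive.

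In TA-like cells alone 0 of 10 were called as well (1.12% of 12273 genes called). Of the 12273 genes, 745 had an unadjusted p under 0.05 in edgeR. Lgr5 (-0.41, SE 0.16, adjusted p = 0.453) and Olfm4 (-0.36, SE 0.16, adjusted p = 0.651) were below an unadjusted p of 0.05 in edgeR, with 0 by DESeq2. The median over the 10 genes was -0.19, with 7 negative, and it rested on the second Arid3a cKO library. Without that library the median was 0.01 and Lgr5 was at -0.06, and without the first the median was -0.39 and Lgr5 at -0.89.

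The difference between these classes was tested itself, as an interaction of class and genotype with the library as a block. The test called 0 of 10 genes, with 0.189% of 13765 genes called. An unadjusted p under 0.05 was reached by 3 of 10, and by 616 of the 13765 genes. The effect in TA-like cells minus that in ISC-like cells was -0.79 for Lgr5 (SE 0.21, adjusted p = 0.24 in edgeR), -0.46 for Olfm4 (SE 0.12, adjusted p = 0.23 in edgeR) and -0.57 for Ascl2 (SE 0.17, adjusted p = 0.379 in edgeR). None of the 3 passed adjustment over all genes. By library, the log2 ratio of Lgr5 to WT (CPM plus 1) was 0.31 and 0.38 in ISC-like cells of Arid3a cKO 1 and Arid3a cKO 2. In TA-like cells it was -0.03 and -0.88. The interaction was not fitted with DESeq2 or without single Arid3a cKO libraries.

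**Figure D4:**
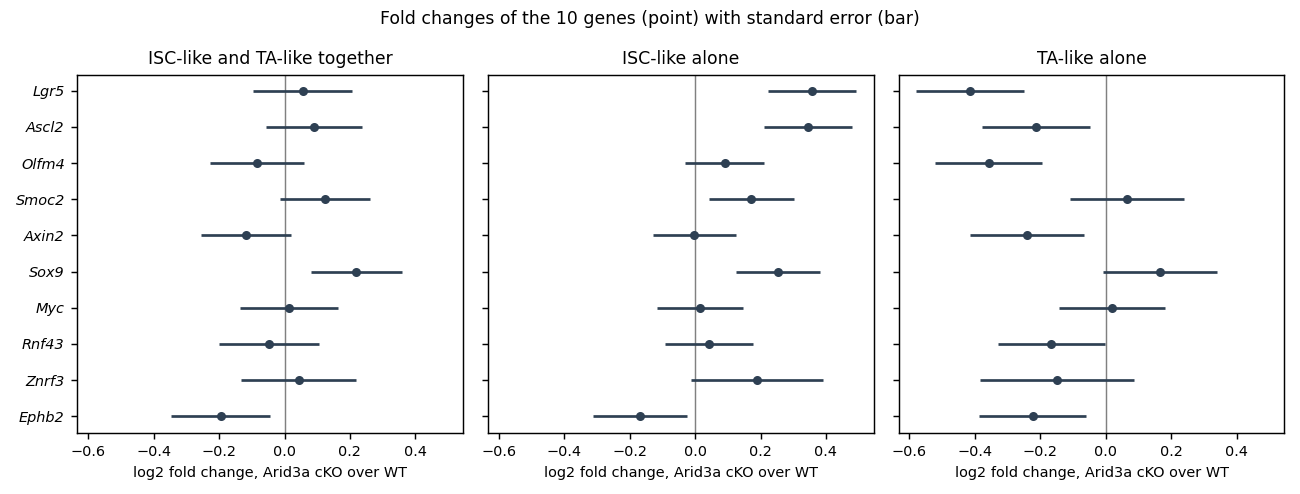
Log2 fold change of Arid3a cKO over WT (horizontal axis) for each of the 10 genes (vertical axis) in ISC- and TA-like cells together and in each class alone, with bars for the standard error from edgeR. None of the 30 points belongs to a called gene, and Lgr5 lies at 0.36 in ISC-like and at -0.41 in TA-like cells.

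Markers of other cell types also differed between the libraries in these crypt cells. The summed level of 14 enteroendocrine markers in ISC- and TA-like cells was 389 and 45.3 CPM in the Arid3a cKO libraries and 544 CPM in WT, and that of 11 Paneth markers was 715, 862 and 1161 CPM. In ISC-like cells alone the enteroendocrine sum was 142, 26.7 and 973 CPM, and in TA-like cells it was 704, 62.1 and 84.9 CPM. The 9 immune markers summed to between 0.0804 and 1.41 CPM, with Cd8a at 0 UMIs in all 3 libraries, and the 8 endothelial and stromal markers to 0.281, 12.1 and 0.351 CPM, with Cdh5 at 0. The part of these RNAs in the values of the 10 genes was not tested. Of the 231 genes called in ISC- and TA-like cells, 23 had Arid3a cKO libraries more than 2-fold apart. The 3 lower genes with the lowest p were the hormone gene Gip, at 6.23 and 2.77 CPM against 226 CPM in WT, the mitochondrial gene mt-Nd3, at 6.07 and 8.71 CPM against 238 CPM, and the mast cell protease gene Mcpt1, at 0 and 0 against 29.3 CPM. The 3 higher ones were Gm28438, at 77.4 and 58.7 CPM against 0.132 CPM, the hormone gene Sst, at 99.6 and 1.12 CPM against 1.32 CPM, and the complement gene C3, at 0.322 and 31.8 CPM against 0.395 CPM. Sst and C3 were each high in 1 Arid3a cKO library and near the WT level in the other.

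The rest of the pathway was read from a pair of lists. Of 18 other WNT target and crypt base genes, 13 had enough UMIs in ISC- and TA-like cells, and 0 rose and 0 fell there (median log2 fold change -0.04), against 1.68% of all genes called. In ISC-like cells alone 6 of the 12 genes tested from this list had a positive log2 fold change and 6 a negative one. In TA-like cells alone 3 of 11 were positive and 8 negative. The 4 genes of this list with the highest ISC-like level were Sox4, Ccnd1, Rgmb and Cd44. Ccnd1, which encodes cyclin D1, had 104 and 107 CPM in the Arid3a cKO libraries and 144 CPM in WT (-0.44, SE 0.14, adjusted p = 0.0648 in edgeR). In TA-like cells alone Ccnd1 was the 1 gene of 11 tested from this list that was called, against 1.12% of all genes, at 81.1 and 87.4 CPM against 131 CPM (-0.64, SE 0.17, adjusted p = 0.0201 in edgeR). Ccnd1 was also called in cluster 2, as 1 of 7, against 2.44% of all genes. It was there at 29.8 and 31.0 CPM against 57.9 CPM (-0.91, SE 0.13, adjusted p = 5.08e-09 in edgeR). In ISC- and TA-like cells Sox4 was at 255 and 183 CPM against 192 CPM, and Rgmb, a BMP co-receptor, at 42.8 and 35.6 CPM against 41.7 CPM. The adhesion receptor Cd44 was there at 43.6 and 39.4 CPM against 34.0 CPM. In ISC-like cells alone Cd44 had a log2 fold change of 0.51 (SE 0.14) and was not called. Of 24 WNT pathway components, 21 were tested in ISC- and TA-like cells, and 0 rose and 0 fell (median 0.00). Ctnnb1, which encodes beta-catenin, was at 215 and 193 CPM against 214 CPM, and the kinase gene Csnk1a1 at 256 and 238 CPM against 234 CPM. For the kinase gene Gsk3b the values were 100.003 and 96.5 CPM against 96.9 CPM, and for the receptor Fzd5 they were 87.7 and 70.8 CPM against 79.3 CPM. Tcf7l2, which encodes the TCF/LEF factor TCF4, was at 57.2 and 63.3 CPM against 72.2 CPM in ISC- and TA-like cells and was not called there. It fell in each of clusters 1, 2, 3 and 5, where it was the 1 component called of 17 to 19 tested. The shares of all genes called in these clusters were 3.41%, 2.44%, 2.79% and 1.79%. In cluster 1 Tcf7l2 was at 59.6 and 76.8 CPM against 107 CPM (-0.64, SE 0.11, adjusted p = 6.28e-07 in edgeR) and in cluster 5 at 59.8 and 71.2 CPM against 115 CPM (-0.80, SE 0.14, adjusted p = 4.98e-06 in edgeR). In clusters 2 and 3 its log2 fold changes were -0.40 (SE 0.12) and -0.59 (SE 0.12). The Arid3a cKO libraries lay below WT in all 4 clusters. As for the ISC- and TA-like sums, the spread in TA-like cells and in clusters 2, 3 and 5 rested wholly on the common trend. In cluster 1 it did so almost wholly. DESeq2 called 29 genes in cluster 2 and 31 in cluster 3, against 270 and 292 by edgeR. Its results for Ccnd1 and Tcf7l2 are not given here.

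Outside the ISC- and TA-like cells few of the 10 genes had the 30 UMIs required. In cluster 3 the test called 1 of 6 genes, with 2.79% of 10464 genes called. That gene was Sox9, at 8.68 and 7.77 CPM in the Arid3a cKO libraries and 3.52 CPM in WT (log2 fold change 1.24, SE 0.34, adjusted p = 0.0127 in edgeR). It rose in both Arid3a cKO libraries, and 23.0% and 18.9% of cells had a UMI against 9.88% in WT. The call was lost without the cells with the highest doublet scores (1.12, adjusted p = 0.186), and DESeq2 gave an adjusted p of 1.00 for Sox9 in cluster 3. Over all alternatives its adjusted p there ran from 0.00873 to 1.00.

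In cluster 2 the test called 1 of 8 genes, with 2.44% of 11054 genes called. Olfm4 was at 2.51 and 2.14 CPM in the Arid3a cKO libraries and 7.75 CPM in WT (log2 fold change -1.69, SE 0.36, adjusted p = 0.000301 in edgeR). Its UMIs came from 13, 12 and 11 cells, and 1 WT cell held 15 of the 55 WT UMIs. The share of cells with an Olfm4 UMI was 3.68% and 5.94% in the Arid3a cKO libraries and 5.12% in WT, so Olfm4 fell in summed level while WT lay between them in share of cells. Without the cells with the highest doublet scores it was at 0.930, 2.03 and 3.65 CPM (-1.33, adjusted p = 0.321), and over the 5 fits that gave one the adjusted p ran from 0.000182 to 0.321. DESeq2 gave a log2 fold change of -1.71 and no adjusted p for Olfm4, and called 0 of 8 genes in cluster 2.

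Rnf43 was above WT in both Arid3a cKO libraries in clusters 1, 3 and 5, by log2 fold changes of 0.36 (SE 0.18), 0.62 (SE 0.24) and 0.49 (SE 0.22), none of which was called (edgeR adjusted p = 0.376, 0.182 and 0.378). In cluster 2 it was not, at 7.88 and 10.8 CPM against 9.87 CPM. In cluster 1 the test called 0 of 4 members (3.41% of 10593 genes called) and in cluster 5 0 of 4 (1.79% of 9213 genes called). Each had 2 at an unadjusted p under 0.05, and DESeq2 was not run there. That limit was passed by 1345 of the 10593 genes in cluster 1 and 972 of the 9213 in cluster 5. Axin2 in cluster 1 was at 10.9 and 8.28 CPM against 6.69 CPM (0.53, SE 0.23, adjusted p = 0.268 in edgeR). In goblet-like cells 0 of 10 were called (1.26% of 10446 genes called), with 3 at an unadjusted p under 0.05, against 819 of the 10446 genes. Axin2 was at 18.3 and 14.4 CPM against 25.8 CPM in goblet-like cells.

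**Figure D5:**
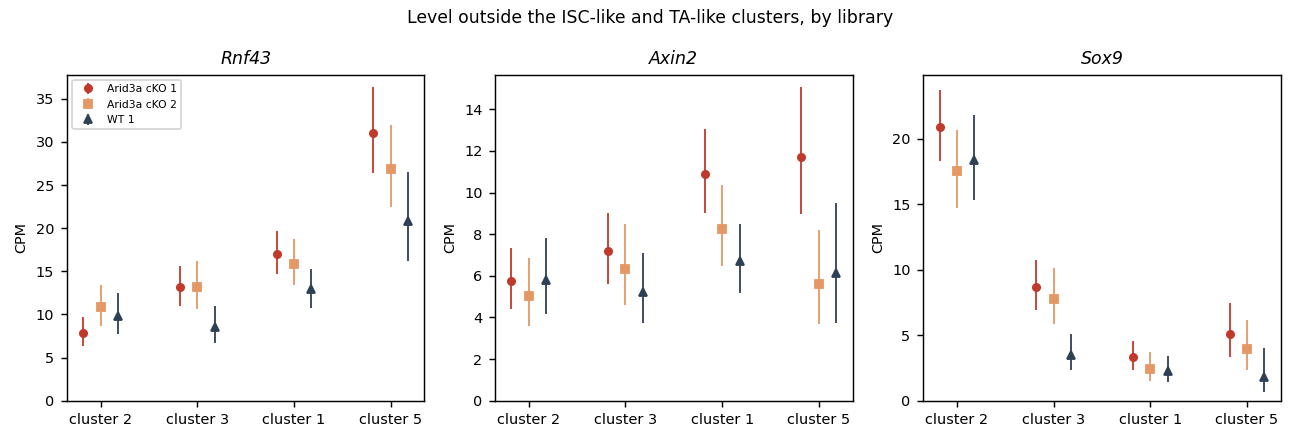
Level in CPM (vertical axis) of Rnf43, Axin2 and Sox9 in clusters 2, 3, 1 and 5 (horizontal axis), with 1 point for each library and bars for the exact Poisson 95% interval. The WT point of Rnf43 is the lowest in clusters 1, 3 and 5, and that of Sox9 in cluster 3 is at 3.52 CPM against 8.68 and 7.77 CPM.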

How the data were processed

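The authors made the deposited files with Cell Ranger 5.0, per the file headers. They hold unnormalised UMI counts for each barcode, from which CPM was computed here. The mouse build and annotation used for counting are not given in the sources used here, and the submitters' processing notes name human builds only. Replicates were not pooled. The 10 genes and the lists were chosen with earlier results of these data known.

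Cells were kept with at least 1000 genes and at most 15% mt- UMIs. Clustering used Seurat 5.3.0 (R 4.3.3) with 3000 integration features, 30 components and resolution 0.3, leaving out 52 genes (the 10 genes and both lists). The naming rule for clusters was set after they were seen. Scrublet in scanpy 1.11.5 marked 110 cells (1.97%), which were kept. UMIs were summed per library and class and tested with edgeR 4.0.16 (TMM, at least 30 UMIs, threshold 0.05), 2 libraries against 1, with DESeq2 1.42.0 as the alternative. The lone WT library was assumed to vary like the Arid3a cKO libraries. Tests were tried on simulated counts with 200 changed genes. The naming rule gave clusters 1, 3 and 5 the enterocyte name. A planned test of the enterocyte-like cells as 1 class was not made, because the 10 leading genes of cluster 3 held 1 ISC marker and 0 enterocyte markers.

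Named genes are the 10, Arid3a, each listed gene called in ISC- and TA-like or all cells, and otherwise up to 4 per list with the highest ISC-like CPM, the nearest gene to each in pattern (of genes with a mean of at least 20 CPM), and the 3 genes with the lowest p in each direction in ISC- and TA-like cells. Ccnd1 in cluster 2, Cd44 in ISC-like cells and Tcf7l2 were picked after their values were seen. Precision was limited by 58169310 to 70922480 UMIs per library in kept cells, so that 3 UMIs in ISC-like cells equal 0.215 to 0.307 CPM. Alternatives changed the cell filter, doublet removal, clustering, test, scaling, count filter, pseudocount and replicates. Those added after seeing the data were robust and bias-adjusted edgeR fits, the fits without doublets in single clusters, the fit without 1 cell per library and the order with cluster 2.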

Additional observations from a re-analysis of the deposited data

Results flagged for a closer look

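Outside the cell filter, in the 19960 barcodes removed for few genes or many mitochondrial UMIs, most of the 10 genes were higher in the Arid3a cKO libraries. Over all kept cells the median log2 fold change of the 10 genes was 0.03, and 0 of 10 were called. Both Arid3a cKO libraries lay above WT for 8 of 10 genes, with ratios of the mean Arid3a cKO level to WT of 1.76 for Rnf43, 1.66 for Sox9, 1.65 for Axin2, 1.64 for Olfm4, 1.60 for Ascl2, 1.49 for Smoc2, 1.36 for Znrf3 and 1.36 for Ephb2. For Lgr5 (ratio 1.79) and Myc (1.33) the second Arid3a cKO library was not above WT. The Poisson intervals of both Arid3a cKO libraries lay above that of WT for 2 genes, Axin2, at 13.9 and 11.3 CPM against 7.63 CPM, and Rnf43, at 22.6 and 25.4 CPM against 13.6 CPM. The removed barcodes numbered 4711 and 5343 in the Arid3a cKO libraries and 9906 in WT. They were not assigned to cell types, and the part of cell type shares or RNA quality in these ratios was not tested. The share of all genes with both Arid3a cKO libraries above WT in these barcodes was not computed. The counts of 8 and 2 genes therefore cannot be read as particular to the 10 genes.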

How the results depend on the processing

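In every fit that gave a test (11 for ISC- and TA-like cells and 8 for all kept cells) 0 of 10 genes were called. The number of genes called in ISC- and TA-like cells was 231 and became 49 with DESeq2, 96 without TMM factors, 153 at resolution 0.8, 134 without integration and 134 with the 10 genes kept among the clustering features, and 185 to 235 under the other 5. Over all cells it was 113 and became 677 without the low count filter, and 78 to 133 otherwise. Small fold changes, none of them called, changed sign under some settings. In all cells these were Lgr5 without TMM factors (-0.0093) and Myc under the wider cell filter (0.062). In ISC- and TA-like cells, removal of the cells with the highest doublet scores gave -0.00053 for Lgr5, -0.042 for Myc and -0.0082 for Znrf3, and Myc was at -0.013 without integration and at -0.0026 with the 10 genes kept among the features. Olfm4 in cluster 2 (-1.33) and Sox9 in cluster 3 (1.12) lost their call without the cells with the highest doublet scores, and Sox9 also with DESeq2 (1.24), which gave Olfm4 no adjusted p. The cause of these changes was not tested.

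Leaving out 1 Arid3a cKO replicate gave the following lowest and highest log2 fold changes. In all cells they were -0.11 and 0.14 for Lgr5, -0.15 and 0.19 for Ascl2, -0.29 and 0.014 for Axin2 and -0.098 and 0.061 for Myc. In ISC- and TA-like cells they were -0.090 and 0.18 for Lgr5, -0.054 and 0.22 for Ascl2, -0.18 and 0.0021 for Olfm4, -0.27 and 0.019 for Axin2, -0.075 and 0.094 for Myc, -0.21 and 0.094 for Rnf43 and -0.044 and 0.12 for Znrf3. In TA-like cells alone Ascl2 was at -0.53 and 0.042.

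In ISC-like cells thinned to 22000 UMIs the mean share over libraries was 29.6% for Lgr5, 49.5% for Ascl2, 77.4% for Olfm4, 78.9% for Smoc2, 67.9% for Axin2, 75.6% for Sox9, 59.4% for Myc, 53.2% for Rnf43, 24.7% for Znrf3 and 49.8% for Ephb2, each below the share in all ISC-like cells before thinning and, for Lgr5 (34.3%), Olfm4 (81.3%) and Ephb2 (65.0%), below that of the same cells before thinning. No paired analysis was possible, because there was 1 WT library and the sample labels name no pairing between mice. The spread among WT mice could not be measured from 1 WT library, and how often changes under 2-fold are found was not simulated.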

Other observations

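The 10 genes were also counted in the secretory cells of the crypt. In enteroendocrine-like cells (58, 53 and 112 cells in Arid3a cKO 1, Arid3a cKO 2 and WT) Olfm4 was at 151, 144 and 55.3 CPM and Sox9 at 70.9, 61.6 and 32.1 CPM, with both Arid3a cKO libraries above WT. The share of these cells with an Olfm4 UMI was 22.4%, 20.8% and 21.4%, and with a Sox9 UMI 37.9%, 34.0% and 33.9%. Lgr5 was at 9.05, 42.8 and 10.5 CPM, so the second Arid3a cKO library stood apart. The enteroendocrine-like cells came from clusters of 175 and 48 cells, with medians of 16157 and 50657 UMIs per cell. A clustering without the cells with the highest doublet scores gave enteroendocrine-like clusters of 93 and 54 cells. Levels in those clusters are not given here. In Paneth-like cells (34, 17 and 29 cells) Sox9 was at 96.7, 44.8 and 47.8 CPM and Olfm4 at 96.1, 1.97 and 62.8 CPM, with WT between the Arid3a cKO libraries for both genes. No test was run in these classes.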
